A study of Homo sapiens with 39 samples.

Results

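Galectins are small proteins that bind β-galactosides, most often the N-acetyllactosamine units of cell-surface and secreted glycans, through a conserved carbohydrate-recognition domain. They are made in the cytosol and leave the cell without a signal peptide. Outside they cross-link glycoproteins into lattices, and inside they mark damaged vesicles. Prototype galectins carry 1 recognition domain and act as dimers (galectin-1, galectin-2 and galectin-7). Galectin-3 is the chimera type, with 1 domain behind a long collagen-like tail. Tandem-repeat galectins join a pair of domains on 1 chain (galectin-4, galectin-8 and galectin-9). Galectin-4 is known as a galectin of the epithelium of the gut, where it takes part in apical membrane sorting.

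The 7 rows named LGALS1, LGALS2, LGALS3, LGALS4, LGALS7, LGALS8 and LGALS9 were taken by name from the deposited tables, and all 7 were found in each of the 13 tables, out of 45435 rows in all. The tables hold RNA-seq of HCT116, a human colorectal carcinoma line, in 39 libraries that form 13 groups of 3. The parental group is the Flp-In T-REx host. The other 12 groups each hold 1 line with a doxycycline-inducible GFP fusion of 1 isoform of HNF4A, a nuclear receptor that drives gene programmes of liver and gut epithelium. All groups, parental included, received doxycycline at 2.5 µg/ml for 48 h. Before induction, selection was with blasticidin plus zeocin for the host cells and with blasticidin plus hygromycin B for the 12 lines. There was no line with GFP alone, so isoform, GFP, earlier antibiotic and line cannot be told apart. The labels do not say whether the 3 libraries of a group came from separate cultures, so p-values measure the spread between libraries, which may be technical.

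Isoforms are described below by the standard nomenclature of the gene, which the labels do not spell out. Isoforms 1 to 6 begin at the P1 promoter and isoforms 7 to 12 at the P2 promoter. Isoforms 4 to 6 carry the extra exon 1B. Isoforms 2, 5, 8 and 11 hold the 10-residue insertion near the C-terminus, and isoforms 3, 6, 9 and 12 end in the short C-terminus. All values are TPM, a level scaled by transcript length and library total that can be compared between genes.

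The induced gene was checked first. HNF4A stood at 30.8 to 32.0 TPM in the parental libraries and at 407 to 1109 TPM in those of the lines, own and introduced transcripts summed. Library 1 of the isoform 3 line stood apart, with 407 TPM of HNF4A against 833 and 772 in the other 2. The epithelial markers EPCAM, CDH1, KRT8, KRT18 and KRT19 summed to 3044 to 3171 TPM in the parental libraries and 2476 to 5580 in the lines. All 5 were above 0 in every library. The 3 fibroblast markers summed to 8.71 to 16.2 TPM over all libraries, mostly COL1A1, while COL1A2 did not exceed 0.0405 TPM. The 4 lymphocyte and myeloid markers summed to 1.09 to 2.02 TPM and the 2 endothelial ones to 1.218 to 6.454. CD3E was listed at 0 in 29 libraries and PTPRC in 10. In bulk RNA, fewer cells with a transcript and less transcript per cell cannot be told apart. Read totals are not given by TPM. The authors' mean normalised counts added up to 50609338 to 56136330 in a table. Normalisation removes differences in depth, so these sums do not show the depth of a library.

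The genes lie on 5 chromosomes in GENCODE's annotation of GRCh38. LGALS4 (ENSG00000171747.8) is at chr19:38801671-38813364 on the minus strand, beside LGALS7 (chr19:38770971-38773492, minus) and its near-copy LGALS7B (chr19:38789211-38791749, plus). LGALS1 (chr22:37675608-37679806, plus) and LGALS2 (chr22:37570246-37582616, minus) lie near each other on chromosome 22. LGALS3 is at chr14:55124110-55145413 (plus), LGALS8 at chr1:236518000-236552981 (plus) and LGALS9 at chr17:27629798-27649560 (plus). Promoter windows from 250 bases before to 50 after the RefSeq start (GRCh38.p14) were searched on both strands for letters of HNF4A motifs: CAAAGTCCA, CAAAGTTCA, their shared core CAAAGT, and a direct repeat of AGGTCA spaced by 1 base. LGALS1 had no window and was not searched, while LGALS8 had more than 1. No window of the other members held an exact match. Over 35116 promoters the shares with a match were 0.384%, 0.296%, 11.9% and 0.0228%. The core is contained in both 9-letter motifs, so those counts overlap. With 1 mismatch to a 9-letter motif allowed, a search added after the exact one, 11.5% of promoters held a match, and 1 window each of LGALS4 and LGALS8 did. In LGALS4 the letters CGAAGTTCA lie on the gene's own strand and start 225 bases upstream (A2G, counted from the motif's 5′ end). In LGALS8 the letters CCAAGTCCA lie on the opposite strand, 159 bases upstream (A2C). A match in letters is a description and not a measured site. The windows are chr19:38812896-38813195 on the minus strand for LGALS4, the member with the largest change in level, and chr1:236523348-236523647 on the plus strand for LGALS8. They are printed from 5′ to 3′ on the gene's strand with the match in capitals.
LGALS4: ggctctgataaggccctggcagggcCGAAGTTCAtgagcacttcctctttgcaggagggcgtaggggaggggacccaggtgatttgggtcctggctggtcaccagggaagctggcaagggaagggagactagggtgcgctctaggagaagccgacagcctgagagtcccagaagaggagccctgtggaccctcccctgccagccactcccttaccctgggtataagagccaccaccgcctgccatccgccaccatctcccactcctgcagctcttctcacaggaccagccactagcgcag
LGALS8: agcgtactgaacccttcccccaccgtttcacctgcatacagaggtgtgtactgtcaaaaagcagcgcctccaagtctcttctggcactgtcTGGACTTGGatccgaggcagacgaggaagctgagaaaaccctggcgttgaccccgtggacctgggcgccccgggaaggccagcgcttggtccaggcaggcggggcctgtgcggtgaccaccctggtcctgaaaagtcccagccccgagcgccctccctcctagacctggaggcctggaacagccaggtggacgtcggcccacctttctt

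The galectins differed widely in level. LGALS1 was the most abundant at 598 to 1303 TPM and made up 78.1% to 91.1% of the summed TPM of the 7 genes in a library. LGALS3 followed at 98.1 to 166.6 TPM, with 7.05% to 19.5% of the sum. LGALS8 ran from 11.9 to 18.0 TPM and LGALS2 from 0.423 to 2.51 TPM. LGALS4 ran from 0.0725 to 12.8 TPM. LGALS7 reached at most 0.630 TPM and LGALS9 at most 0.412. Tests were made with limma on log2(TPM + 1) over 15003 genes whose mean reached 1 TPM. Of the 7 members 5 did, and LGALS7 and LGALS9 did not. LGALS4 did so only through the lines in which it was high, with a mean of 3.11 TPM over all libraries and 0.137 in parental cells. A change was called when its Benjamini-Hochberg adjusted p was under 0.05 and its log2 size 1 or more. It passed when the adjusted p alone was under 0.05. All 12 comparisons with the parental cells share the same 3 parental libraries.

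LGALS4, the intestinal tandem-repeat galectin, was close to absent in parental cells and rose in most lines. The parental libraries held 0.180, 0.0739 and 0.158 TPM. The isoform 1 libraries held 12.1, 10.1 and 12.3 TPM, and those of isoform 2 held 8.97, 12.8 and 12.8. These 6 libraries were the highest of all and did not overlap with any other group. The isoform 10 libraries followed at 3.87, 4.00 and 4.50 TPM, and those of isoform 11 at 2.71, 3.64 and 3.17. Isoform 12 gave 2.11, 2.20 and 2.82 TPM. The isoform 3 libraries were uneven at 1.27, 3.58 and 3.51 TPM, the low one being the library with the low HNF4A level, whose part in the result was not tested. Isoform 8 stood at 1.85, 1.85 and 2.00 TPM and isoform 7 at 1.39, 1.51 and 1.42. The isoform 9 libraries, at 0.693, 0.526 and 0.963 TPM, still lay above every parental library. The lines with exon 1B were the lowest of the 12. Isoform 4 gave 0.483, 0.378 and 0.137 TPM, which overlapped the parental range, and isoform 5 gave 0.417, 0.265 and 0.231, just above it. The isoform 6 libraries held 0.162, 0.134 and 0.0725 TPM, within or below the parental range. HNF4A itself stood at 807 to 1109 TPM in the lines of isoforms 4 to 6, above the 577 to 806 TPM of isoforms 1 and 2.

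**Figure D1:**
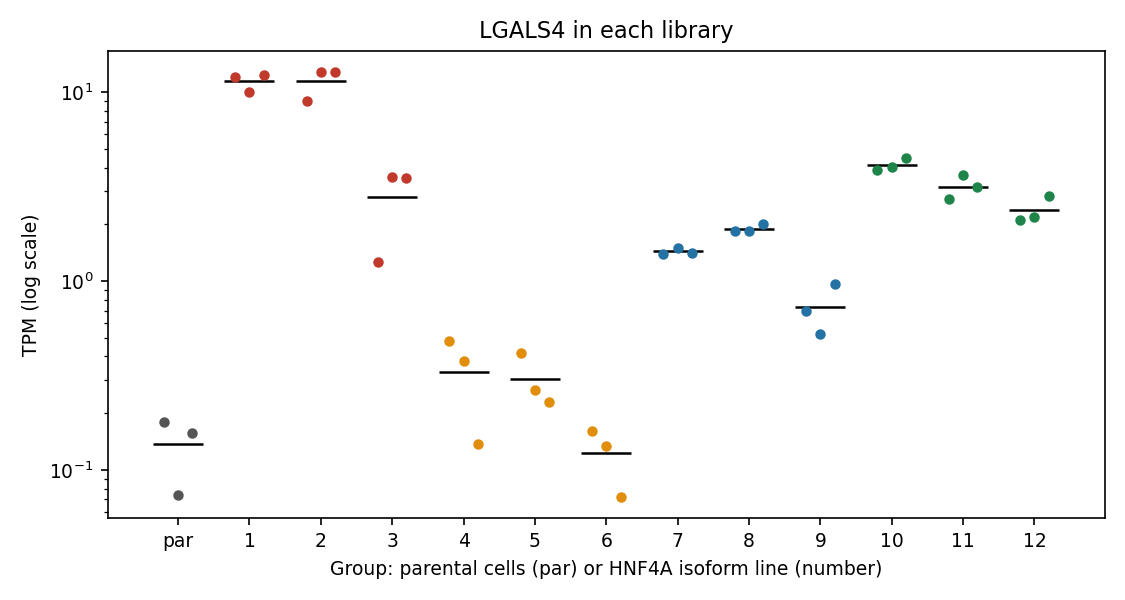
LGALS4 in TPM (log scale) in each of the 39 libraries, 3 per group, with the group mean as a bar. Grey marks the parental cells, red isoforms 1 to 3, orange 4 to 6, blue 7 to 9 and green 10 to 12. Isoforms 1 and 2 sit at 8.97 to 12.8 TPM and isoforms 4 to 6 at 0.0725 to 0.483 TPM, near the parental 0.0739 to 0.180.

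By limma, LGALS4 was called higher in 8 of the 12 lines and in no line lower. The log2 change against parental cells was 3.45 ± 0.17 (SE, n = 3 libraries a group, adjusted p = 7.56e-17, limma) in isoform 1, where 2.74% of all genes tested were called higher. It was 3.44 in isoform 2, with 2.36% of genes called higher. In isoform 3 it was 1.67, with 0.653% called, and 2.00 without library 1 of that line. The change was 2.17 in isoform 10 (1.13% called), 1.87 in isoform 11 (1.05%) and 1.56 in isoform 12 (0.44%). It was 1.35 in isoform 8 (0.94%) and 1.10 in isoform 7 (1.12%). The SE was 0.169 for each of these values. In isoform 9 the change of 0.60 passed at adjusted p = 0.0098 (limma) but stayed below the minimum size, with 10.9% of genes passing higher in that line, and without library 3 of that line it did not pass (0.50, adjusted p = 0.0582, limma). In isoforms 4, 5 and 6 the values were 0.22, 0.20 and -0.02, with adjusted p of 0.405, 0.508 and 0.965 (limma). No other member was called in any line, so LGALS4 was the 1 member called of 5 tested in each of the 8 lines. That count holds a gene that met the filter only through lines in which it was high. At an unadjusted p under 0.05 (limma), LGALS1 and LGALS3 differed from parental cells in 9 lines each, LGALS8 in 4 and LGALS2 in 2. The scale of log2(TPM + 1) compresses low levels: with 0.1 TPM added instead of 1, the change was 5.63 in isoform 1, 4.18 in isoform 10 and 1.80 in isoform 9, which was then called too. In isoforms 4, 5 and 6 it was then 0.80, 0.77 and -0.08, without passing (adjusted p of 0.0682, 0.0857 and 0.908, limma). In the authors' deposited table the log2 fold change was 5.57 in isoform 1, 2.97 in isoform 10 and 0.59 in isoform 9. The authors' settings are not given, and their fold changes may have been drawn towards 0 at low counts. Sizes are therefore not directly comparable: in isoform 9 the mean was 0.727 TPM against 0.137 in parental cells. By the adjusted p of the authors' deposited tables, LGALS4 passed as higher in 9 lines, those of isoforms 1 to 3 and 7 to 12.

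Lines that differ in 1 structural feature were compared with each other in the same fit. For the 10-residue insertion, the LGALS4 difference was -0.01 ± 0.17 (SE) between isoforms 2 and 1 and -0.03 between 5 and 4. It was 0.25 between 8 and 7 and -0.30 between 11 and 10, and no adjusted p of these 4 pairs was below 0.266 (limma). For the short C-terminus, isoform 3 was lower than isoform 1 by a log2 difference of -1.79 (adjusted p = 7.91e-10, limma, 1.17% of genes called lower), or -1.46 without library 1 of isoform 3. The other short forms were also below their long partners in mean, by -0.51 for isoform 9 against 7 and -0.61 for 12 against 10. These 2 passed at adjusted p of 0.0395 and 0.0111 (limma), where 4.69% and 7.83% of genes passed lower. The first lost its pass when any library other than library 3 of isoform 9 was left out (adjusted p of 0.0599 to 0.151, limma) or the filter was dropped (0.0938). The second lost it without library 3 of isoform 10 (adjusted p = 0.0567, limma) or with 0.1 TPM added (0.0717). Isoform 6 against 4, both near the parental level, differed by -0.24 (adjusted p = 0.433, limma), and by -0.88 with 0.1 TPM added (0.0523).

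The largest differences in LGALS4 lay between lines that differ at the N-terminus. Not every such pair exceeded in size the -1.79 of isoform 3 against 1. With exon 1B the level was lower by -3.23 in isoform 4 against 1 (2.76% of genes called lower) and by -3.25 in isoform 5 against 2 (2.02%). Isoform 6 was lower than isoform 3 by -1.68 (0.613%). The P2 forms were lower than the P1 forms, by -2.35 for isoform 7 against 1 (1.17%), -2.09 for 8 against 2 (1.05%) and -1.07 for 9 against 3 (0.433%). Without library 1 of isoform 3 the last value was -1.40. All 6 were called, with adjusted p of at most 2.45e-05 (limma). Within the P2 class, isoform 10 was higher than isoform 7 by 1.07 (adjusted p = 1.43e-05, limma), where 0.593% of genes were called higher. Isoform 12 exceeded 9 by 0.97 and isoform 11 exceeded 8 by 0.52, with adjusted p of 9.27e-05 and 0.0415 (limma). These 2 passed without reaching the minimum size, and 9.13% and 3.46% of genes passed higher in those pairs. The difference between isoforms 11 and 8 lost its pass with 0.1 TPM added (adjusted p = 0.125, limma), without the filter (0.099) and when any library other than library 1 of isoform 11 was left out (0.0862 to 0.137). Each isoform is 1 line, so a pair compares 2 lines.

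**Figure D2:**
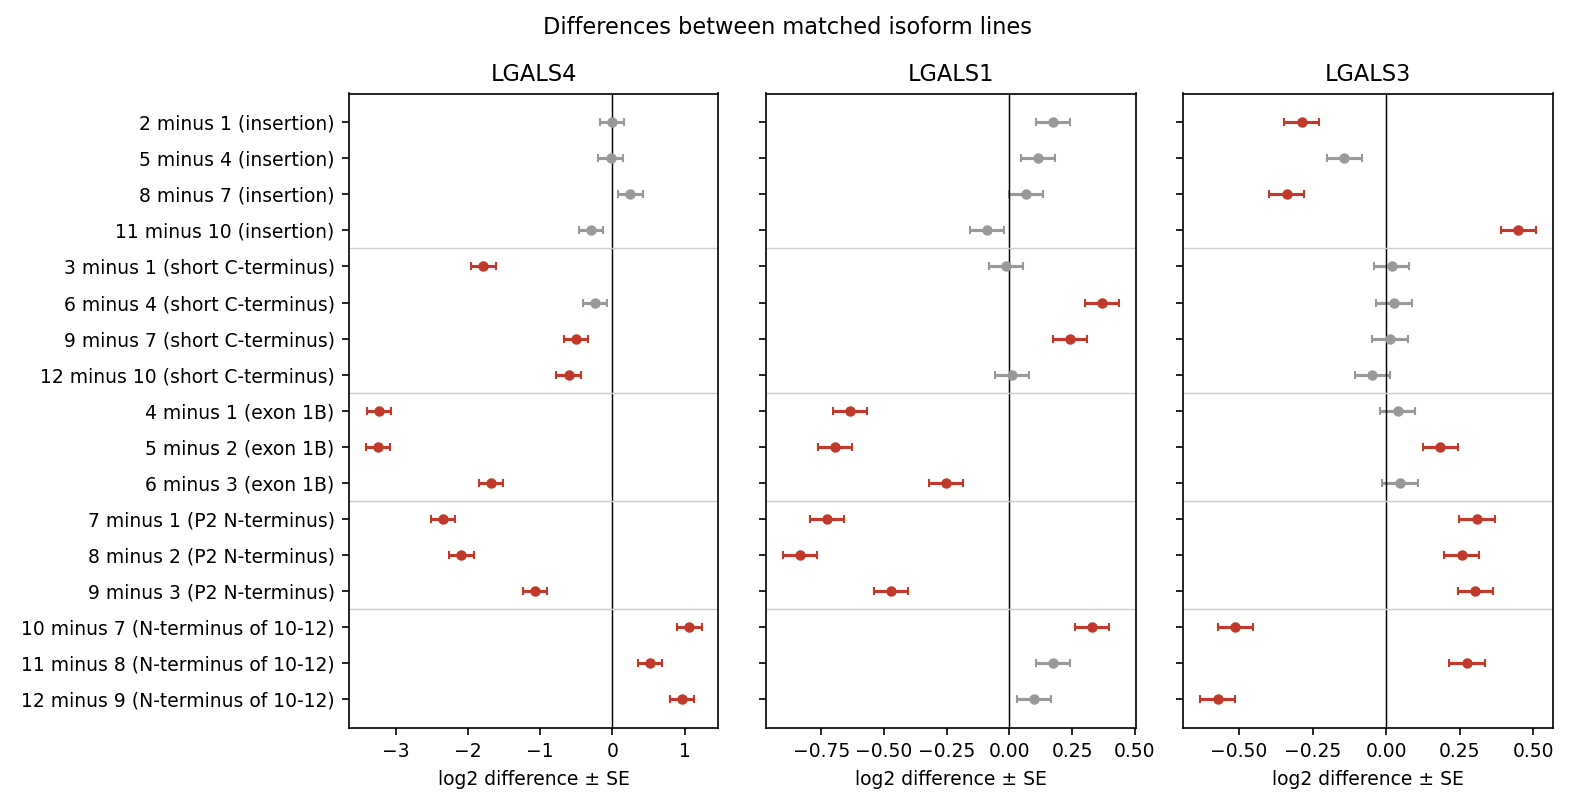
Log2 differences between matched isoform lines (first minus second) with SE bars for LGALS4, LGALS1 and LGALS3, grouped by the feature in which the lines differ. Red points passed at adjusted p under 0.05 and grey points did not, and the 3 horizontal axes differ in range. In the 6 exon 1B and P2 pairs LGALS4 lies between -3.25 and -1.07 and LGALS1 between -0.84 and -0.25, and in the 3 P2 pairs LGALS3 lies between 0.26 and 0.31.

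LGALS8, a tandem-repeat galectin that recognises glycans exposed on damaged vesicles and binds integrins, moved little. The parental libraries held 13.4, 13.9 and 15.96 TPM. The lowest lines were isoform 2 at 12.96, 11.9 and 12.3 TPM and isoform 1 at 12.2, 13.4 and 12.8. The highest was isoform 10 at 16.8, 16.1 and 17.2 TPM, all 3 above the parental range. The log2 change was -0.16 in isoform 1 and -0.20 in isoform 2, which passed lower with adjusted p of 0.0496 and 0.0132 (limma), where 38.7% and 35.6% of genes passed lower. It was 0.20 in isoform 10 (adjusted p = 0.0215, limma, with 17% of genes passing higher). The changes in isoforms 1 and 2 did not pass after median-of-ratios scaling (-0.03 and -0.09), nor without parental library 3 (-0.09 and -0.13). The change in isoform 10 did not pass without parental library 1 or 2 (adjusted p = 0.121 and 0.0834, limma) or without library 1 or 3 of that line (0.0559 and 0.0751). In the other 9 lines no change of LGALS8 passed, and values ran from -0.04 to 0.17. After scaling, isoforms 3 (0.17), 9 (0.20) and 11 (0.22) passed as higher, with adjusted p of 0.038, 0.0155 and 0.00551 (limma). In the authors' deposited tables LGALS8 passed as higher in isoforms 3, 10 and 11 and as lower in none. Between lines, LGALS8 was higher in isoform 3 than 1 by 0.26, in isoform 7 than 1 by 0.21 and in isoform 8 than 2 by 0.31, all passing, where 27.4%, 23.2% and 29.5% of genes passed higher. The difference between isoforms 7 and 1 did not pass without library 1 of isoform 1 (adjusted p = 0.0758, limma) or library 3 of isoform 7 (0.107).

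LGALS9, the third tandem-repeat gene, was low in every group and lay below the filter for the tests. Its libraries ran from 0.0955 TPM in isoform 2 to 0.412 TPM in isoform 4. Group means lay between 0.131 TPM in isoform 9 and 0.276 TPM in isoform 12. The parental mean was 0.230 ± 0.0788 TPM (SD, n = 3), and the libraries of isoform 9, at 0.112, 0.119 and 0.165 TPM, overlapped with the parental range. When the filter was dropped, its log2 changes ran from -0.12 to 0.05, and no line passed by limma, nor did any reach an unadjusted p under 0.05. LGALS9 had an adjusted p in 6 lines of the authors' deposited tables and passed in none. LGALS9B and LGALS9C, copies of LGALS9 with transcripts 95.9% and 95.8% identical to it over the aligned bases, were listed at 0 in 37 and 39 libraries.

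LGALS1, the dimeric prototype galectin that dominates the family in these cells, differed between lines by less than the minimum size of a call. The parental libraries held 808, 881 and 849 TPM. The isoform 2 libraries were highest with 1086, 1303 and 1214 TPM, and isoform 1 followed with 1063, 1072 and 1051. Isoform 3 gave 1045, 1143 and 972 TPM. All 9 libraries of these 3 lines lay above the parental ones and above all other lines. The lowest group was isoform 7 with 651, 676 and 598 TPM. Isoform 8 gave 691, 634 and 689 TPM and isoform 4 gave 709, 706 and 636, and none of these 9 libraries reached the parental range. Against parental cells the log2 change was 0.33 ± 0.07 (SE) in isoform 1, 0.50 in isoform 2 and 0.31 in isoform 3, all passing with adjusted p of at most 0.000907 (limma). Genes passing higher made up 19.8%, 19.7% and 11.2% of those tested in these 3 lines. It was -0.31 in isoform 4, -0.40 in isoform 7 and -0.33 in isoform 8, with adjusted p of at most 0.0019 (limma), where 10.1%, 26.2% and 17.5% of genes passed lower. Neighbours in the order of means overlapped in range from isoform 6 (884 TPM) down to isoform 7 (642 TPM). In isoform 5 the change of -0.20 missed the threshold (adjusted p = 0.0521, limma) and passed after scaling (adjusted p = 0.048, limma). In the authors' deposited tables LGALS1 passed as higher in the same 3 lines and as lower in those of isoforms 4, 5, 7 and 8.

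The median log2 change of all genes tested was -0.11 in isoform 1 and -0.09 in isoform 2, and 0.01 and 0.02 after median-of-ratios scaling. LGALS1 then changed by 0.47 and 0.62 in those lines, and kept its sign in the other 4 in which it had passed. Between matched lines LGALS1 was lower with exon 1B, by -0.64 (4 against 1), -0.70 (5 against 2) and -0.25 (6 against 3), where 21.8%, 18.1% and 9% of genes passed lower. The last of these lost its pass without library 2 of isoform 3 (adjusted p = 0.0755, limma) or library 1 of isoform 6 (adjusted p = 0.0846, limma). It was also lower in the P2 forms, by -0.73 (7 against 1), -0.84 (8 against 2) and -0.47 (9 against 3), where 16.8%, 14.7% and 9.21% of genes passed lower. The short form isoform 6 exceeded isoform 4 by 0.37, with 8.14% of genes passing higher, and isoform 10 exceeded isoform 7 by 0.33, with 17.4%. Isoform 9 exceeded isoform 7 by 0.24 (adjusted p = 0.0152, limma, with 10.8% of genes passing higher), a pass that was lost after scaling (adjusted p = 0.0975, limma) and without library 3 of isoform 7 or library 2 or 3 of isoform 9 (0.0899, 0.0657 and 0.0727).

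**Figure D3:**
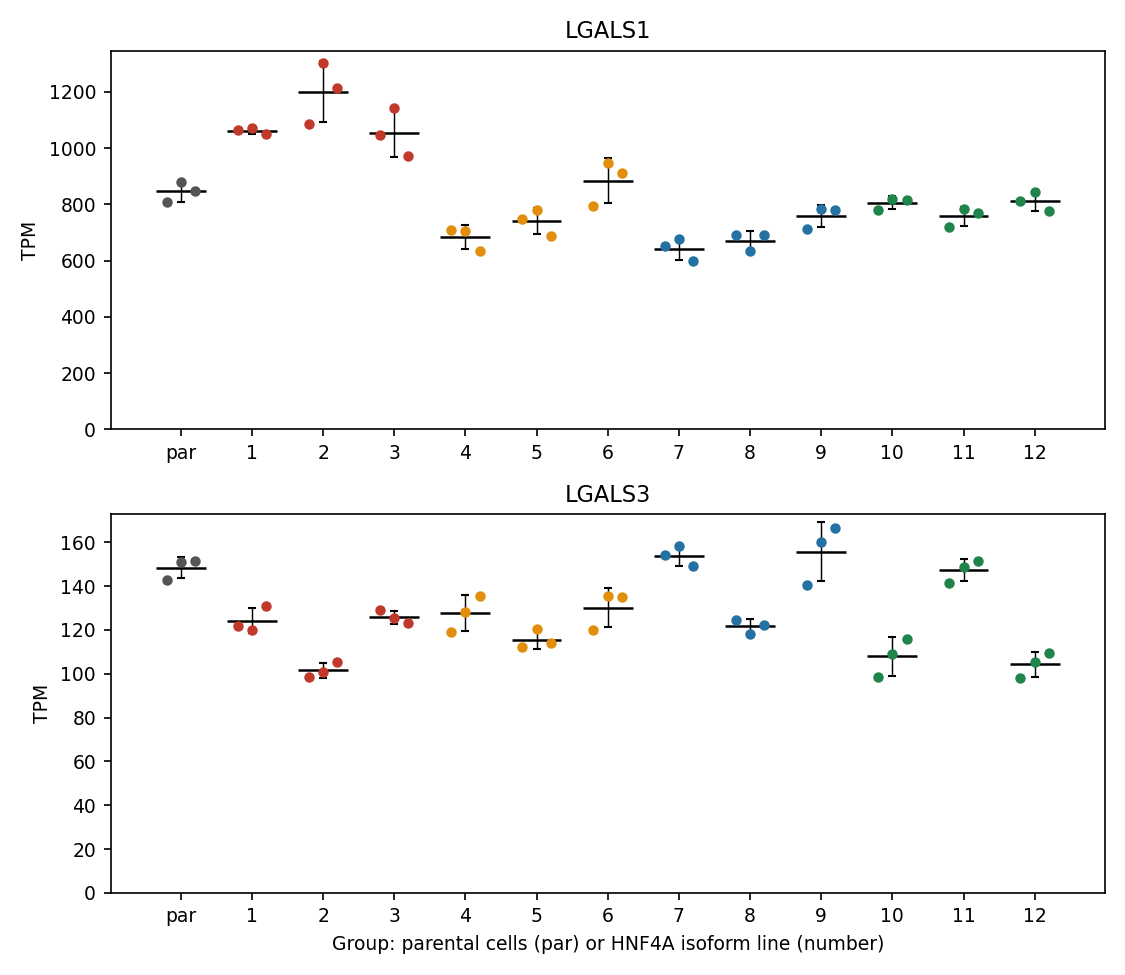
LGALS1 and LGALS3 in TPM in each library, with the group mean and SD (n = 3) and the colours of the LGALS4 plot. LGALS1 is highest in isoforms 1 to 3, at 972 to 1303 TPM against 808 to 881 in parental cells, while LGALS3 is lowest in isoforms 2, 10 and 12, with means of 101.6 to 107.8 TPM.

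LGALS2, a prototype galectin of the gastrointestinal tract, was scarce. The parental libraries held 1.55, 1.23 and 1.63 TPM, and the isoform 8 libraries held 0.423, 0.498 and 0.481. These 3 were the lowest of all 39 libraries. The log2 change of -0.75 ± 0.22 (SE) in isoform 8 passed at adjusted p = 0.00836 (limma), where 17.5% of genes passed lower. In the other 11 lines the change ran from -0.45 to 0.29 and did not pass. Spread within groups was wide: the isoform 3 libraries held 0.498, 2.12 and 0.815 TPM. The isoform 5 libraries stood highest in mean with 2.00, 1.89 and 2.17 TPM, against 0.883, 0.692 and 0.844 in isoform 4. That difference of 0.74 passed (adjusted p = 0.0265, limma, with 7.95% of genes passing higher) but lost its pass whichever of the 6 libraries was left out (adjusted p of 0.0502 to 0.0919, limma). In the authors' deposited tables LGALS2 had a mean of 9.0 to 17.9 normalised counts. They give it an adjusted p in 5 lines, where it did not pass, and none in isoform 8. The authors' log2 fold change there was -0.33, a size that may have been drawn towards 0, as for LGALS4.

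LGALS7, the prototype galectin of stratified epithelium, was listed at 0 in 22 of the 39 libraries and reached 0.309, 0.207 and 0.574 TPM in the parental ones. It was listed at 0 in all libraries of isoforms 2, 6, 8, 9 and 11. LGALS7 lay below the filter. When the filter was dropped it passed as lower in isoforms 2, 8, 9 and 11 (adjusted p of 0.0105, 0.019, 0.0273 and 0.0165, limma) and not in isoform 6 (0.0536). The share of genes passing lower was not counted in that run. With the filter it was 35.6%, 17.5%, 11.8% and 24% in isoforms 2, 8, 9 and 11. A listed 0 can also be a failed estimate. Its values cannot be separated well from those of LGALS7B. Over the 466 aligned bases of their transcripts 465 were identical, with a longest run of 322 identical bases. Their promoter windows share a run of 168 bases, from 120 bases before the LGALS7 start onwards, printed here from 5′ to 3′ to show how alike the 2 copies are.
LGALS7 and LGALS7B: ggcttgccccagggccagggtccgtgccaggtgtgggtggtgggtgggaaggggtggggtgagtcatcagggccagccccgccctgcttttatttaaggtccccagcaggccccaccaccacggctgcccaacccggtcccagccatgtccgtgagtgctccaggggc

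LGALS7B, which is not among the 7 genes, carried most of the joint level. It stood at 0.970, 1.10 and 1.52 TPM in parental cells, 3.85, 2.74 and 3.41 in isoform 1 and 3.84, 3.00 and 3.09 in isoform 2. The log2 change was 0.98 ± 0.24 (SE) in isoform 1 and 0.98 in isoform 2 (adjusted p = 0.0009 and 0.00104, limma), which passed without reaching the size of a call, in lines where 19.8% and 19.7% of genes passed higher. Summed over both copies, the means were 1.56 ± 0.463 TPM (SD, n = 3) in parental cells, 3.41 ± 0.589 in isoform 1 and 3.31 ± 0.458 in isoform 2. The lowest sum was 0.687 ± 0.160 TPM in isoform 11.

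**Figure D4:**
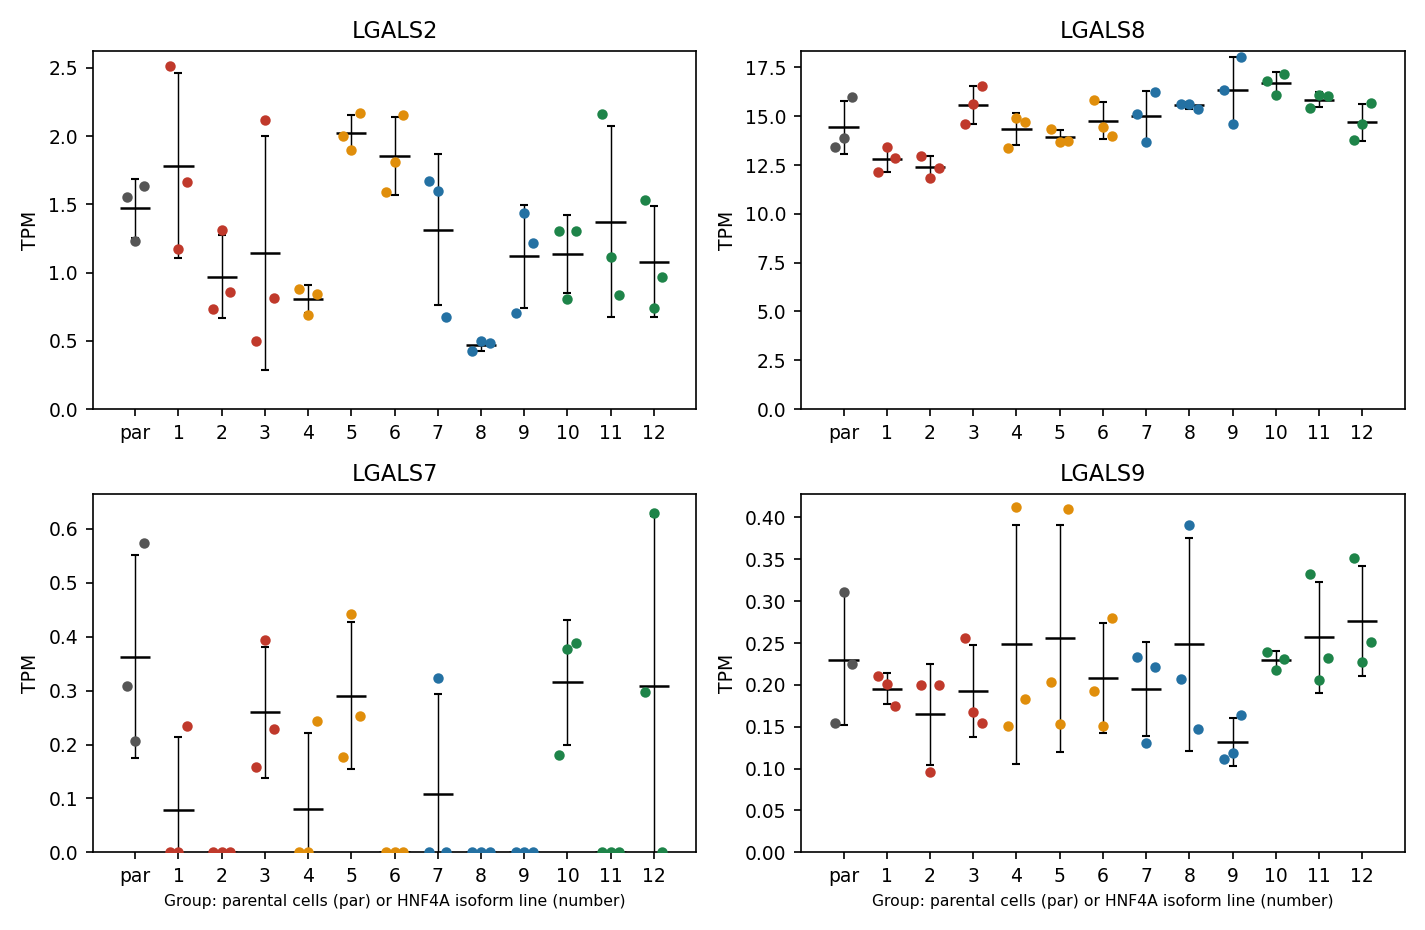
LGALS2, LGALS8, LGALS7 and LGALS9 in TPM in each library, with the group mean and SD (n = 3, bars cut at 0) and the colours of the LGALS4 plot. LGALS2 is lowest in isoform 8 at 0.423 to 0.498 TPM, LGALS8 stays between 11.9 and 18.0 TPM, and LGALS7 is listed at 0 in 22 libraries.

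LGALS3, the chimera galectin of epithelia, was lower than in parental cells in most lines, by small amounts. The parental libraries held 142.8, 151 and 151 TPM. The isoform 2 libraries held 98.5, 100.8 and 105.4 TPM, those of isoform 12 held 98.1, 105.3 and 109.3, and those of isoform 10 held 98.5, 109.1 and 115.9. None of these 9 libraries reached the parental range. Isoforms 7, 9 and 11 stayed at the parental level, with means of 153.9, 155.7 and 147.3 TPM against 148.4 ± 4.87 (SD, n = 3). The log2 change was -0.54 ± 0.06 (SE) in isoform 2, -0.51 in isoform 12 and -0.46 in isoform 10, each passing with adjusted p of at most 4.31e-07 (limma). Genes passing lower made up 35.6%, 6.65% and 20.4% of those tested in these 3 lines. LGALS3 passed as lower in 9 of the 12 lines in all. The other 6 were isoform 5 (-0.36, with 5.22% of genes passing lower), isoform 8 (-0.29, 17.5%), isoform 1 (-0.26, 38.7%), isoform 3 (-0.24, 14.7%), isoform 4 (-0.22, 10.1%) and isoform 6 (-0.19, 4.13%). After median-of-ratios scaling the values in isoforms 1, 4 and 6 no longer passed, at -0.12, -0.15 and -0.16, and isoform 7 passed as higher at 0.15 (adjusted p = 0.038, limma). The value in isoform 4 also lost its pass without parental library 3 (adjusted p = 0.0514, limma) or 1 library of that line (0.0873). The value in isoform 6 did so without parental library 2 or 3 (0.129 and 0.133) or library 1 of that line (0.222). In isoform 11 the sign of the change was negative at -0.01 and positive at 0.08 after scaling. In the authors' deposited tables LGALS3 passed as lower in 8 lines, isoform 1 not among them, and as higher in isoform 7.

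For LGALS3 the insertion went with differences of opposite sign. Isoform 2 was below isoform 1 by -0.29 and isoform 8 below isoform 7 by -0.34, whereas isoform 11 exceeded isoform 10 by 0.45. The fourth pair, isoform 5 against 4, differed by -0.14 (adjusted p = 0.148, limma), and passed after scaling at -0.22 (0.0112). The other 3 passed with adjusted p of at most 0.000918 (limma), where 6.97% and 3.32% of genes passed lower in the first 2 pairs and 4.52% passed higher in the third. The 4 pairs for the short C-terminus differed by -0.05 to 0.03, and none passed. The P2 forms were above the P1 forms by 0.31 (7 against 1), 0.26 (8 against 2) and 0.30 (9 against 3), where 23.2%, 29.5% and 9.54% of genes passed higher. Within the P2 class isoform 10 was below 7 by -0.51 and isoform 12 below 9 by -0.57, where 8.17% and 7.55% of genes passed lower, and isoform 11 was above 8 by 0.28 (3.46% passed higher). With exon 1B the 3 differences were 0.04 to 0.18. Only that of isoform 5 against 2, the largest, passed (adjusted p = 0.0103, limma, with 35.8% of genes passing higher), and it did not pass after scaling (0.05) or without 1 library of isoform 5 (0.15). LGALS3 thus stood low in isoforms 10 and 12 and at the parental level in isoform 11.

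**Figure D5:**
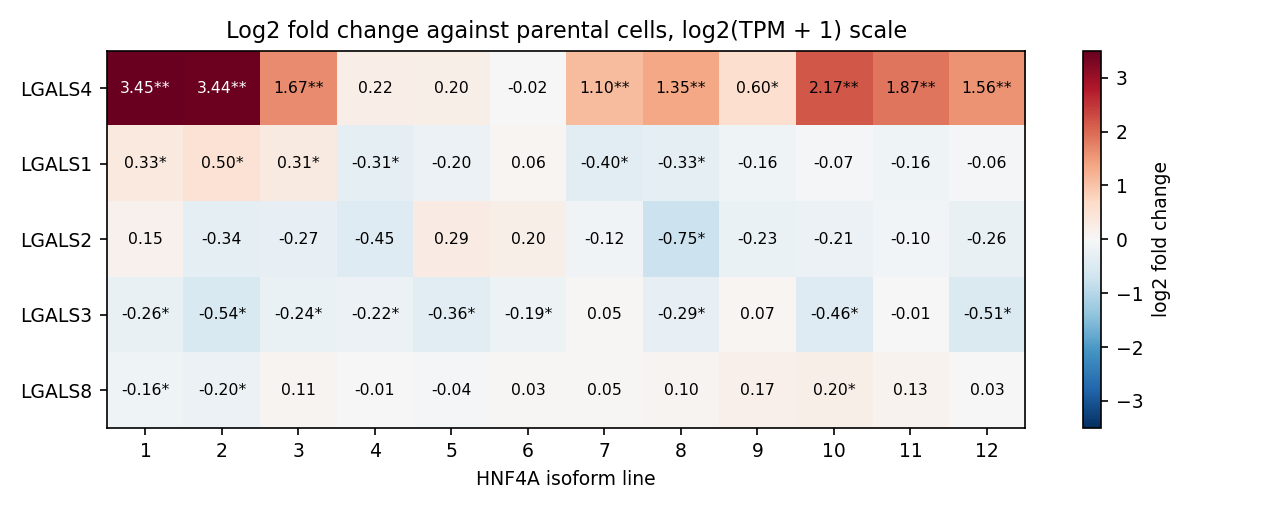
Log2 fold change on the log2(TPM + 1) scale of the 5 tested galectins in the 12 isoform lines against parental cells. A double asterisk marks a change called at adjusted p under 0.05 with a log2 change of at least 1, and a single asterisk one that passed at that adjusted p only. Changes of LGALS4 are called in 8 lines, up to 3.45, while the other 4 genes stay between -0.75 and 0.50.

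Of 10 other genes of the family or named after it, 3 were tested, LGALS7B, LGALS3BP and LGALSL. LGALS3BP, a secreted glycoprotein that binds galectin-3, stood at 244.6 to 258 TPM in parental cells and 171.6 to 190.3 in isoforms 7 and 8. It passed as lower in 8 lines, those of isoforms 5 to 12, by -0.14 to -0.50. In isoforms 5 to 12, in order, 5.22%, 4.13%, 26.2%, 17.5%, 11.8%, 20.4%, 24% and 6.65% of all genes passed lower. In the authors' deposited tables LGALS3BP passed as lower in 7 of these 8 lines, isoform 10 being the exception, and as higher in isoforms 1 to 3. LGALSL, a galectin-like protein, passed as higher in isoforms 8, 10 and 12, by 0.20 to 0.25, in lines where 16.9%, 17% and 7.92% of genes passed higher. LGALS16 was listed at 0 in all 39 libraries, and LGALS12, LGALS13, LGALS14 and CLC did not exceed 0.291 TPM.

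Partners of the galectins were looked at in fixed lists. Of 35 galectin-binding glycoproteins 24 were tested and 4 were called in at least 1 line. Over all genes and the 12 lines, 0.94% of comparisons were called higher and 0.574% lower. These shares are per gene and line, so a count of genes called in at least 1 line cannot be read against them. ITGA3, an integrin chain, was higher in isoforms 1, 2 and 11, by 1.57, 1.30 and 1.01. In these lines 2.74%, 2.36% and 1.05% of all genes were called higher. SLC2A1, the glucose transporter GLUT1, was higher in isoforms 1 and 2, by 1.23 and 1.07. NRP1, a co-receptor for semaphorins and VEGF, was lower in isoforms 5 and 6 (-1.26 and -1.22), and PODXL, a sialomucin, in isoform 2 (-1.10). Genes called lower made up 0.14%, 0.153% and 1.37% of those tested in isoforms 5, 6 and 2. The median change of the 24 was 0.07 in isoform 1 against -0.11 over all genes tested, and 0.04 in isoform 2 against -0.09. It lay below the median of all genes in isoforms 4, 5, 6, 7, 9, 11 and 12, and above it in the remaining lines. In isoform 7 it was -0.14 against -0.06, and in isoform 9 -0.07 against -0.004. The list was thus not shifted in 1 direction across the lines. Of 35 genes listed for building or capping N-acetyllactosamine and other glycans, 30 were tested and 3 were called. B3GNT3, which extends core glycans with N-acetylglucosamine, was higher in isoforms 1, 2 and 3, by 2.07 ± 0.09 (SE), 2.12 and 1.12. There 2.74%, 2.36% and 0.653% of all genes were called higher. FUT8, which adds core fucose, was lower in isoform 1 (-1.15, with 1.78% of genes called lower). ST3GAL1, which caps core 1 glycans with sialic acid, was lower in isoform 2 (-1.04, with 1.37%). In isoform 1, 9 of the 30 passed higher and 13 lower, with a median of -0.07, where 19.8% and 38.7% of all genes did. Of the 13 genes of the response to damaged vesicles none was called in any line by limma, although 56 of 156 comparisons passed higher, 22 passed lower and 92 had an unadjusted p under 0.05. Over all genes 12.8% of comparisons passed higher and 17.9% lower in the 12 lines. In isoform 1, 9 of these 13 passed higher and 2 lower, with a median of 0.24 against -0.11 over all genes, and in isoform 6 1 passed in each direction.

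The nearest 3 genes on each side of LGALS4 in the order of the reference are CAPN12, LGALS7 and LGALS7B on one side and ECH1, HNRNPL and RINL on the other. Of these, LGALS7 was not tested, and the other 5 were called in no line by limma. In their 60 comparisons 4 passed higher and 13 lower, and 28 had an unadjusted p under 0.05. Around LGALS1 and LGALS2, the tested neighbours CARD10, CDC42EP1, GGA1, SH3BP1, PDXP, NOL12 and TRIOBP were also called in no line by limma. In their 84 comparisons 15 passed higher and 33 lower, and 57 had an unadjusted p under 0.05. The shares over all genes are again 12.8% and 17.9%.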

How the data were processed

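RNA-seq of 39 libraries (13 groups of 3) was used as the authors deposited it, 1 table per group. The submitters' processing notes name Trimmomatic 0.36, FastQC 0.11.5, kallisto 0.44.0, DESeq2 1.22.2 and build GRCh38.p12, without settings. No annotation is named in these sources. The authors deposited TPM per gene and library, and these TPM sum to between 999972.6 and 999987.7 per library. Per the file headers, each line's table adds the authors' own comparison with parental cells, made of a signal (mean normalised count), a log2 fold change and SE, a test score, and p-values before and after adjustment. These authors' values were only set beside those found here.

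The 12 rows of HNF4A transcript forms were summed to 1 row. Genes with a mean of 1 TPM or more were fitted as log2(TPM + 1) in 1 limma 3.58.1 model (R 4.3.3, trend on) of 39 libraries with 26 residual degrees of freedom, with 12 contrasts against parental cells and 17 between matched lines. P-values were adjusted by Benjamini-Hochberg over all 15003 genes of a contrast. The code was tested on simulated data. The text names the 7 members, other genes of the family or named after it, and genes of fixed lists called in at least 1 line. It also names the 5 genes whose group means follow a tested member most closely, and the neighbours of LGALS4, LGALS1 and LGALS2. Members and lists were chosen with earlier results of these data known. Transcripts were aligned with Biopython 1.88. The numbered columns of isoforms 4 and 5 could not be matched to single samples, because the sample titles of each line repeat the same column name. Alternatives were a pseudocount of 0.1 TPM, no filter, a 5 TPM filter, median-of-ratios scaling, the 2 compared groups alone, a replicate block and leaving out each library. Protein sequences and a promoter of LGALS1 were not used here.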

Additional observations from a re-analysis of the deposited data

Results flagged for a closer look

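Results were singled out where the effects of 2 lines against the same parental cells differed by a test of the difference itself (limma, adjusted over all genes). LGALS4 pairs were taken where that difference was called. LGALS1 pairs were taken where both effects passed, in opposite directions, and the difference passed too. For LGALS4 the log2 differences were -3.25 for isoform 5 against 2, -3.23 for isoform 4 against 1 and -1.68 for isoform 6 against 3. For the P2 forms they were -2.35 for isoform 7 against 1, -2.09 for 8 against 2 and -1.07 for 9 against 3. Isoform 3 against 1 gave -1.79 and isoform 10 against 7 gave 1.07. For LGALS1, which passed higher in isoforms 1 and 2 and lower in isoforms 4, 7 and 8, the differences were -0.64 for isoform 4 against 1, -0.73 for 7 against 1 and -0.84 for 8 against 2.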

How the results depend on the processing

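No result changed direction and passed in the other direction under any alternative run. With a 5 TPM filter LGALS4 and LGALS2 were not tested, so the 8 lines in which a galectin, always LGALS4, was called higher became 0, the 13 comparisons passed higher became 4, and the matched pairs called fell from 1 to 0 (higher) and from 7 to 0 (lower). With a pseudocount of 0.1 TPM the pairs called higher rose from 1 to 5, and LGALS2 in isoform 8 became the 1 comparison with parental cells called lower, against 0. Leaving out 1 library gave 8 to 8 lines with LGALS4 called, 12 to 15 comparisons passed higher, 11 to 16 passed lower (15 with all libraries), 1 to 2 pairs called higher and 6 to 7 called lower. The pairs called higher were 2 without isoform 9 replicate 3 or without isoform 12 replicate 1 or 2. After median-of-ratios scaling 17 comparisons passed higher and 11 lower.

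Replicate numbers went with a weak likeness between libraries, for which the main fit has no term. Over the 11 groups whose numbered columns matched single samples, same-numbered libraries correlated by -0.18 to 0.23, with 38 of 165 pairs over 0.1. Their median was 0.05, against -0.03 for libraries of different number. On average 29 of 33 libraries lay closest to their own number. The replicate block was run on the 11 groups without isoforms 4 and 5, whose columns could not be matched to single samples. With the block 8 comparisons were called higher, 13 passed higher and 14 passed lower, against 8, 13 and 11 without it in the same 11 groups (12 passed lower in these lines in the fit of all 39 libraries). LGALS1 passed as lower in isoforms 9 and 11 with the block (adjusted p of 0.0461 and 0.0284, limma). The levels of LGALS2, LGALS4, LGALS7 and LGALS9 in parental cells are near the low end of what these tables resolve, and TPM gives no counting error.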

Other observations

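Markers of gut differentiation were looked at as a pair of further lists. Of 11 enterocyte markers 2 reached the level needed for a test. VIL1, which bundles actin in the brush border, was called higher in 9 lines, by 4.81 ± 0.17 (SE) in isoform 1 and 1.29 in isoform 9. ANPEP, a brush border aminopeptidase, was called higher in 6 lines, by up to 3.03 in isoform 7. Of all genes tested, 2.74% were called higher in isoform 1, 1.12% in isoform 7 and 0.387% in isoform 9. Across the lines this share ran from 0.0933% to 2.74%. Of 6 crypt markers 2 were tested, and AXIN2, a target of Wnt signalling, was called lower in isoform 9 (-1.01). In that line 0.44% of all genes were called lower. The other tested crypt marker, MYC, was called in no line, with changes from -0.375 in isoform 2 to 0.121 in isoform 4.

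The 5 genes whose 13 group means followed those of LGALS4 most closely were DUSP3 (Pearson r of 0.984), SLC1A7 (0.977), RTCA (0.976), SLC9A3R1 (0.976) and VAMP8 (0.975). SLC1A7, a glutamate transporter, changed by 3.44 in isoform 1 and 2.10 in isoform 10, and VAMP8, a vesicle SNARE, by 0.77 and 0.43. For LGALS1 they were IQSEC2 (0.939), TMEM184A (0.934), SKIV2L (0.931), PIGY and PYURF (0.927 each, with equal values), and for LGALS3 they were led by TMC5 (0.943) and DCAF4 (0.922). These values describe 13 means that share libraries, and the genes were chosen from 15003.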
